A study of Mus musculus with 6 samples.

Results

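The CC chemokine ligands described here are *Ccl2*, *Ccl3*, *Ccl4*, *Ccl5*, *Ccl6*, *Ccl7*, *Ccl8*, *Ccl9*, *Ccl12*, and *Ccl22*, 10 of the 54232 genes in the deposited files, chosen by name with earlier results of these data known. They were measured by RNA-seq in monocytes sorted from the CNS of mice with EAE, a model of multiple sclerosis induced by immunization with a myelin peptide. Recipients were lethally irradiated GFP+ mice reconstituted with equal parts of BM, *Ifnar1*-/- from CD45.2 donors and WT from CD45.1 donors, immunized 6 to 7 weeks later, and treated with 30000 IU of IFN-β every day. At the peak of disease, donor monocytes (GFP-CD45+CD11b+Ly6ChiLy6G-) of each genotype were sorted and gave 3 WT and 3 *Ifnar1*-/- libraries. *Ifnar1*-/- donors lack a chain of the type I IFN receptor in every donor-derived cell. Both groups were therefore exposed to IFN-β, both developed in irradiated hosts that also held cells of the other genotype, and no library came from untreated mice. Receptor genotype cannot be told apart from other differences between the CD45.1 and CD45.2 donors. The ages of the mice were not given in the sources used here, and 3 recipient mice were used. The sources do not tie a library to a mouse, so it is not given whether libraries of a group came from separate mice or whether libraries of the same number shared one, and p-values measure the spread between these libraries.

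CC chemokines are small secreted proteins with 2 adjacent cysteines near the start of the mature chain, and they guide leukocytes by binding G protein-coupled CC receptors and glycosaminoglycans. CCL2, CCL7, and CCL12 are monocyte chemoattractants that bind CCR2, the route by which Ly6Chi monocytes leave the BM, and CCL8 comes from a related gene of the same cluster. CCL3, CCL4, and CCL5 guide monocytes and T cells, CCL6 and CCL9 are rodent ligands of CCR1, and CCL22 attracts T cells through CCR4.

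Sequences around the adjacent cysteine codons show what the 10 ligands share and how far they differ. This matters for the read counts, since reads of near-identical genes can be divided among them. Each line gives 60 coding bases, 5′ to 3′, from the GENCODE M21 transcripts (GRCm38), with both cysteine codons in capitals.
Ccl2 (ENSMUSG00000035385.5, chr11:82036500-82036559, plus strand, exon 2): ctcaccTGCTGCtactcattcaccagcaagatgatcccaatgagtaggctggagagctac
Ccl7 (ENSMUSG00000035373.2, chr11:82046532-82046591, plus strand, exon 2): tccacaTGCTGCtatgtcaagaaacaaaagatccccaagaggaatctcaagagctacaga
Ccl12 (ENSMUSG00000035352.3, chr11:82102628-82102687, plus strand, exon 2): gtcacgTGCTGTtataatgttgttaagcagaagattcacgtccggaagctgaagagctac
Ccl8 (ENSMUSG00000009185.2, chr11:82116050-82116109, plus strand, exon 2): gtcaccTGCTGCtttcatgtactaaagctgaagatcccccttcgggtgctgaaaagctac
Ccl3 (ENSMUSG00000000982.5, chr11:83648604-83648663, minus strand, exon 2): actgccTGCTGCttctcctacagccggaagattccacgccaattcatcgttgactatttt
Ccl4 (ENSMUSG00000018930.3, chr11:83663476-83663535, plus strand, exon 2): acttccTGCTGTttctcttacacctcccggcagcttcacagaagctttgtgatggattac
Ccl5 (ENSMUSG00000035042.2, chr11:83529194-83529253, minus strand, exon 2): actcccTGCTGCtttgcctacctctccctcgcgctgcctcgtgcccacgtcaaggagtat
Ccl6 (ENSMUSG00000018927.3, chr11:83589338-83589397, minus strand, exon 3): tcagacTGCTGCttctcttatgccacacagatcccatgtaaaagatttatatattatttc
Ccl9 (ENSMUSG00000019122.8, chr11:83575878-83575937, minus strand, exon 3): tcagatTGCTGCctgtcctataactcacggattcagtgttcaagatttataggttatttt
Ccl22 (ENSMUSG00000031779.3, chr8:94746928-94746987, plus strand, exon 2): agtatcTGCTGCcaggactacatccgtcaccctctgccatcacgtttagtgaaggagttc
Every coding sequence held exactly 1 adjacent cysteine pair. The pair lay in exon 2 of 8 genes and in exon 3 of *Ccl6* and *Ccl9*. Over whole coding sequences, the most alike pairs were *Ccl8* with *Ccl12* and *Ccl6* with *Ccl9*, each with 70.5% identical aligned bases. The longest run of bases shared by any pair of the 10 transcripts was 25, between *Ccl6* and *Ccl9*. Expected counts of all 10 genes were whole numbers in every library, so no read was divided between a ligand gene and another gene. Of these genes, 9 lie in clusters on chromosome 11. *Ccl2*, *Ccl7*, *Ccl12*, and *Ccl8* share the stretch from 82035571 to 82305690 with *Ccl11* and *Ccl1*, and *Ccl5*, *Ccl9*, *Ccl6*, *Ccl3*, and *Ccl4* lie from 83525778 to 83664683. *Ccl22* is on chromosome 8.

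Libraries held 4531782 to 7321380 expected counts. *Ifnar1* itself had 111 to 153 normalized CPM in WT and 102 to 110 in *Ifnar1*-/- libraries, which did not overlap but were not called (log2 fold change 0.28, edgeR adjusted p = 0.360), and counts over the gene as a whole cannot show a disrupted exon. All 12 monocyte markers passed the expression filter. Of 12 neutrophil markers 11 passed it, all but *Ly6g*, which had at most 4 counts in any library. The 12 neutrophil markers summed to 487, 915, and 2479 normalized CPM in WT libraries 1 to 3. In *Ifnar1*-/- libraries 1 to 3 they summed to 1111, 979, and 2849. Of 6 B cell genes 1 passed, *Ighm*, and *Pax5* had 0 counts. Of the 12 monocyte markers, 2 were called higher in WT, *Ly6c2* and *Ms4a4c*, beside 1.67% of all tested genes, and 0 were called lower. A log2 fold change above 0 was seen for 6 of the 12 (median 0.07). The 12 summed to 14720 to 15280 normalized CPM in WT and 16330 to 17280 in *Ifnar1*-/- libraries. *Ly6c2*, a gene of the sort marker Ly6C, had a log2 fold change of 1.40 (edgeR adjusted p = 0.00957). Its counts were not whole and were partly shared with other genes. Markers of T and NK cells were present at low levels. Their sum was 108 to 147 normalized CPM in WT and 54.4 to 66.9 in *Ifnar1*-/- libraries, and 0 of them were called, as were 0 neutrophil and 0 microglia markers. Fewer cells of a type and less RNA per cell cannot be told apart in such libraries.

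To compare levels between genes, the deposited TPM values were used, which correct for transcript length. *Ccl6* was the most abundant ligand in both groups, with 656 ± 67.6 TPM in WT and 728 ± 185 TPM in *Ifnar1*-/- monocytes (SD, n = 3). *Ccl9* was next, with 339 ± 15.9 and 394 ± 129 TPM, followed by *Ccl2* with 219 ± 64.2 and 119 ± 54.7 TPM and *Ccl5* with 114 ± 37.9 and 71.9 ± 47.8 TPM. In WT libraries the ranges of these 4 genes did not overlap. In *Ifnar1*-/- libraries the ranges of *Ccl2* and *Ccl5* overlapped, and *Ccl2* was above *Ccl5* in 2 of 3 libraries. *Ccl3* (32.9 ± 15.6 and 19.4 ± 6.49 TPM) and *Ccl4* (30.8 ± 3.04 and 17.1 ± 4.59 TPM) were at like levels, with overlapping ranges in both groups. *Ccl7* (16.5 ± 11.3 and 5.67 ± 2.43 TPM) and *Ccl12* (12.2 ± 6.10 and 6.18 ± 5.49 TPM) also had overlapping ranges in both groups. *Ccl7* was above *Ccl12* in 3 of 3 WT libraries and in 2 of 3 *Ifnar1*-/- libraries. *Ccl22* had 1.81 ± 1.37 and 0.910 ± 0.383 TPM. *Ccl8* was at the limit of detection, with 0 counts in each WT library and 1 count in each *Ifnar1*-/- library, under the detection floor of 3 counts. No fold change is given for *Ccl8*.

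*Ccl6* and *Ccl9* together made up most of the ligand transcripts. Their share of the summed TPM of the 10 genes was 68.4, 74.2, and 67.8% in WT libraries 1 to 3, and 84.5, 83.8, and 77.6% in the *Ifnar1*-/- libraries. The clustered genes *Ccl2*, *Ccl7*, *Ccl12*, and *Ccl8* took 21.8, 15.1, and 14.6% in WT and 11.7, 7.58, and 8.63% in *Ifnar1*-/- libraries. *Ccl3*, *Ccl4*, and *Ccl5* took 9.64, 10.7, and 17.5% in WT and 3.71, 8.49, and 13.8% in *Ifnar1*-/- libraries. The first and second of these shares did not overlap between groups, while the share of *Ccl3*, *Ccl4*, and *Ccl5* did, as did the summed normalized CPM of all 10 genes, at 1245 to 2164 in WT and 1262 to 2136 in *Ifnar1*-/- libraries. All shares are parts of the same total, so a lower share of *Ccl6* and *Ccl9* goes with higher shares of the others. Taken singly, *Ccl2*, *Ccl6*, *Ccl7*, *Ccl9*, and *Ccl12* each had overlapping groups in normalized CPM. These shares describe genes chosen with earlier results known and were not tested.

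**Figure D1:**
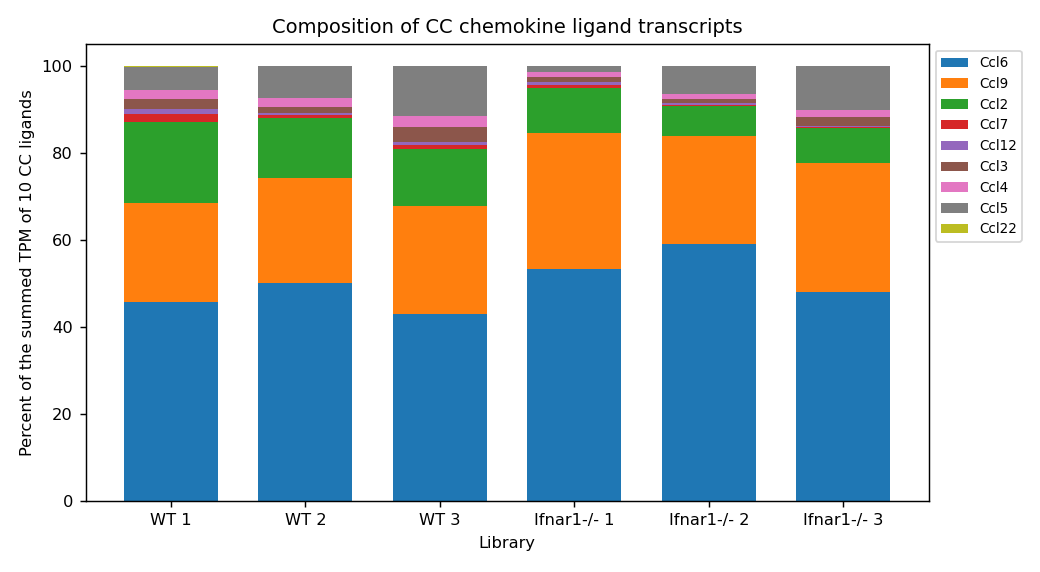
Share of each CC chemokine ligand in the summed TPM of the 10 genes (y axis, percent), for each of the 3 WT and 3 *Ifnar1*-/- libraries (x axis). *Ccl6* and *Ccl9* fill 67.8 to 74.2% of the WT bars and 77.6 to 84.5% of the *Ifnar1*-/- bars; *Ccl8*, at most 0.0433%, is not drawn.

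WT and *Ifnar1*-/- monocytes were then compared to ask which ligand genes differed with the IFN receptor in IFN-β-treated mice. In the edgeR quasi-likelihood test without a block for library number, no CC chemokine ligand was differentially expressed (fold change 1.5 or more with an adjusted p not above 0.05). Of the 10 genes, 9 passed the expression filter, *Ccl8* being the exception, and 0 were called in either direction, beside 1.67% of 11254 tested genes called higher and 0.462% called lower in WT, or 2.13% in either direction. At an unadjusted p of at most 0.05, 3 of the 9 had a positive fold change (*Ccl2*, *Ccl4*, and *Ccl7*) and 0 a negative one, beside 9.69% and 8.14% of all tested genes. DESeq2 and limma-voom called 0 of them as well. The fitted log2 fold change, WT over *Ifnar1*-/-, was above 0 for 7 ligands and below 0 for *Ccl6* and *Ccl9*, with a median of 0.79. Over all tested genes the median was -0.01, and 48.2% were above 0. Without WT library 1 the same 7 ligands stayed above 0, at 0.02 (*Ccl22*) to 0.61 (*Ccl4*). The 10 genes were chosen with earlier results known, and their median was not tested. Of 3 tested CC ligands outside the 10, 1 was above 0, and *Ccl24* had -1.90. The 5642 tested genes of the same transcript lengths as the ligands (511 to 2216 bases) had a median of -0.05. In the same libraries, 19 of 20 interferon-stimulated genes were upregulated in WT, with a median log2 fold change of 4.08 over the 20 genes. Among them *Cxcl10*, a ligand of the CXC family, had a log2 fold change of 1.02 (SE 0.15, edgeR adjusted p = 0.00444). Without the filter on low counts, *Ccl2*, *Ccl3*, *Ccl4*, and *Ccl7* were called higher in WT, in a fit that called 610 of 21265 genes higher. With the library number as a block, as if same-numbered libraries came from 1 mouse, *Ccl2* (edgeR adjusted p = 0.0232) and *Ccl7* (adjusted p = 0.0435) were called higher in WT.

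**Figure D2:**
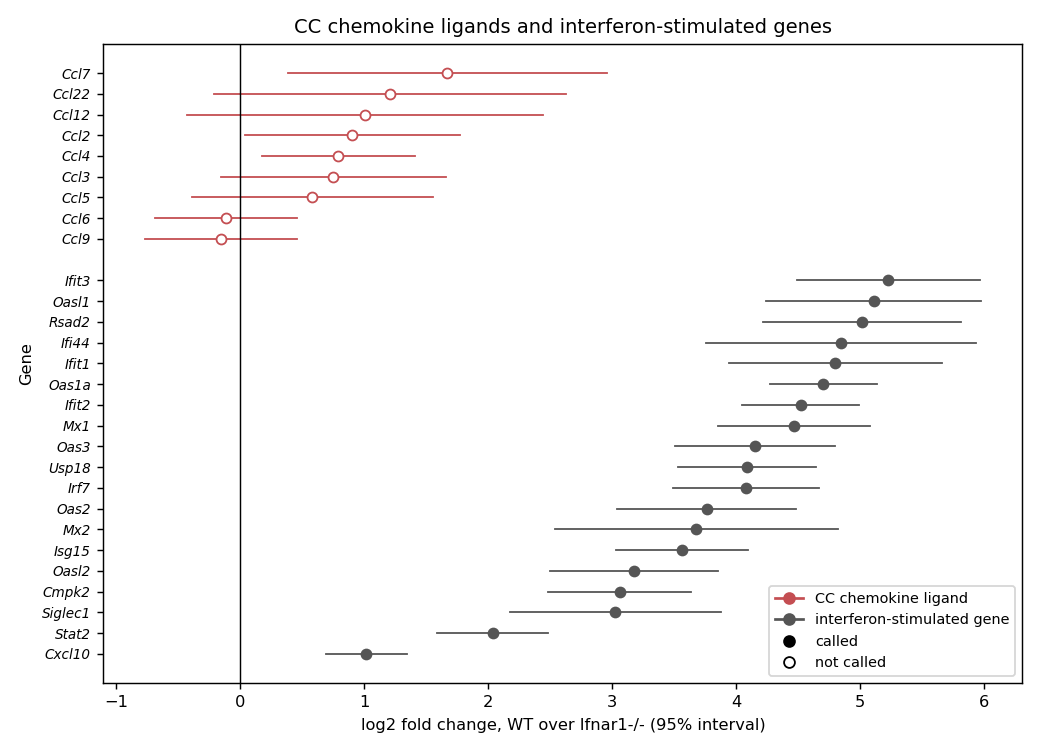
Log2 fold change of WT over *Ifnar1*-/- monocytes (x axis) with its 95% interval (lines) for the 9 tested CC chemokine ligands (red) and the 19 called of 20 interferon-stimulated genes (grey), with filled points for called genes. None of the ligand points is filled.

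Among the monocyte chemoattractant genes, *Ccl2*, a ligand of CCR2, had 278, 121, and 116 normalized CPM (CPM after TMM scaling of library sizes) in WT libraries 1 to 3. The *Ifnar1*-/- libraries 1 to 3 had 145, 56.6, and 73.9. *Ifnar1*-/- library 1 lay above WT libraries 2 and 3, so the groups overlapped. The log2 fold change was 0.91 (SE 0.39, 95% interval 0.04 to 1.77, edgeR adjusted p = 0.260), and the two-sided exact permutation test gave p = 0.3, where 3 libraries against 3 cannot give a p below 0.1. *Ccl7*, the neighbour of *Ccl2* on chromosome 11, had 25.3, 5.74, and 5.92 normalized CPM in WT and 6.11, 2.71, and 2.94 in *Ifnar1*-/- libraries. WT library 1 stood alone, and the other WT libraries lay just below *Ifnar1*-/- library 1. Its log2 fold change of 1.67 (SE 0.58, edgeR adjusted p = 0.172) was the largest of the 9 tested ligands, and without WT library 1 it was 0.56 (adjusted p = 0.638). *Ccl12*, a mouse ligand of CCR2, had 9.25, 2.55, and 3.16 normalized CPM in WT and 5.19, 1.36, and 0.920 in *Ifnar1*-/- libraries. The highest value of each group was again that of library 1, and the groups overlapped. Its log2 fold change was 1.01 (95% interval -0.43 to 2.45, edgeR adjusted p = 0.452), and 0.17 without WT library 1. For *Ccl2* the value without WT library 1 was 0.37. A block for library number, as if same-numbered libraries shared a mouse, gave calls higher in WT for *Ccl2* and *Ccl7* (edgeR adjusted p = 0.0232 and 0.0435). It did not for *Ccl12* (adjusted p = 0.177). Libraries 1 were also the deepest of their groups, with 7321380 (WT) and 6916101 (*Ifnar1*-/-) counts, and the part of depth in these values was not tested. With both libraries 1 left out, a choice made after seeing the data, log2 fold changes were 0.86 for *Ccl2* (edgeR adjusted p = 0.0571), 1.04 for *Ccl7* (adjusted p = 0.429), and 1.30 for *Ccl12* (adjusted p = 0.518).

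**Figure D3:**
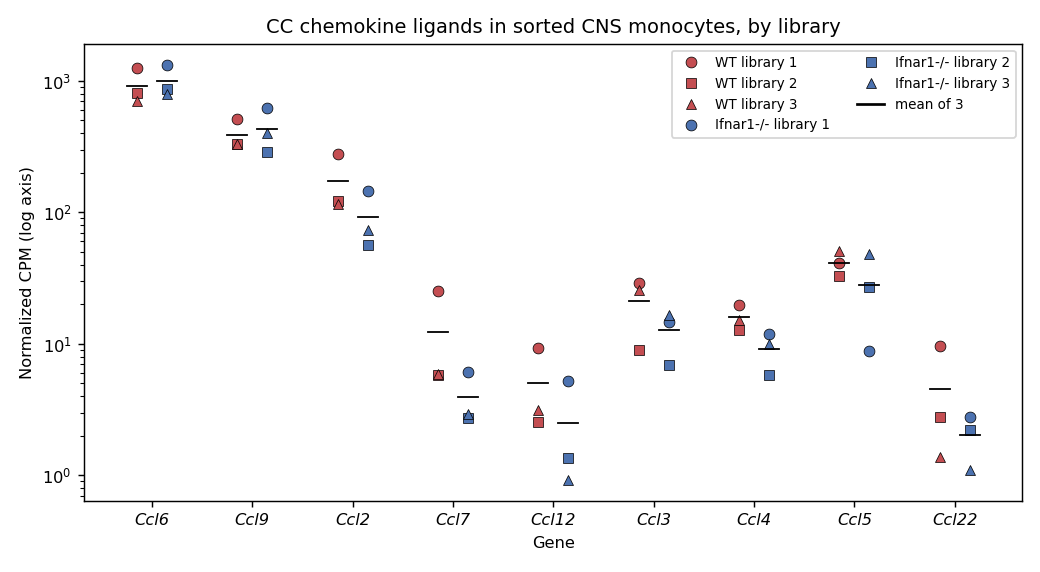
Normalized CPM (y axis, log scale) of the 9 CC chemokine ligands that passed the filter, with a point per library (WT red, *Ifnar1*-/- blue, shape by library number) and a bar at the mean of 3. *Ccl4* is the ligand whose WT points (12.8 to 19.6) all lie above its *Ifnar1*-/- points (5.76 to 11.9); libraries 1 (circles) are highest in both groups for *Ccl2*, *Ccl7*, *Ccl12*, *Ccl22*, *Ccl4*, *Ccl6*, and *Ccl9*.

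Of the macrophage inflammatory protein genes and *Ccl5*, *Ccl4* was the only tested CC ligand whose groups did not overlap, beside 11.1% of all tested genes with every WT library above every *Ifnar1*-/- library. It had 19.6, 12.8, and 15.2 normalized CPM in WT and 11.9, 5.76, and 9.93 in *Ifnar1*-/- libraries. The log2 fold change was 0.79 (SE 0.28, 95% interval 0.17 to 1.41), which did not pass the threshold (edgeR adjusted p = 0.176; exact permutation test, two-sided, p = 0.1, the lowest that 3 libraries against 3 can give). *Ccl3*, which lies beside *Ccl4* and is read from the opposite strand, had 28.9, 8.93, and 25.7 normalized CPM in WT and 14.7, 6.95, and 16.6 in *Ifnar1*-/- libraries. Library 2 was lowest in both groups, and the groups overlapped. The log2 fold change of *Ccl3* was 0.75 (95% interval -0.16 to 1.66, edgeR adjusted p = 0.369).

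Immediate early genes, which are known to be induced when tissue is digested, had the same order of libraries within each group as *Ccl3* in WT and in *Ifnar1*-/- monocytes. Their summed level was 6916, 3830, and 6171 normalized CPM in WT and 4227, 2939, and 4728 in *Ifnar1*-/- libraries. For example, *Fos* had 1269, 407, and 1118 normalized CPM in WT and 716, 306, and 981 in *Ifnar1*-/- libraries. All 17 genes of this list were tested, 16 had a log2 fold change above 0, beside 48.2% of all tested genes, and 1, *Jund*, was upregulated in WT (0.95, edgeR adjusted p = 0.0349). In this list 5 genes had a positive and 0 a negative fold change at an unadjusted p of at most 0.05. The part of tissue digestion in the *Ccl3* values was not tested. Of 18 inflammatory genes regulated by NF-κB, including *Tnf* and *Il1b*, 0 were called, with a median log2 fold change of 0.17. At an unadjusted p of at most 0.05, 3 of these had a positive and 2 a negative fold change. The shares over all tested genes were 9.69% and 8.14%.

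*Ccl5*, which T and NK cells also express strongly, had 41.0, 32.5, and 50.5 normalized CPM in WT and 8.86, 26.9, and 47.8 in *Ifnar1*-/- libraries. *Ifnar1*-/- library 1 stood far below the other libraries, and *Ifnar1*-/- library 3 reached the WT range. The log2 fold change was 0.58 (SE 0.44, 95% interval -0.39 to 1.55, edgeR adjusted p = 0.527). It ranged from 0.17 without *Ifnar1*-/- library 1 to 1.23 without *Ifnar1*-/- library 3. T and NK cell markers summed to 147, 108, and 134 normalized CPM in WT and 66.9, 60.2, and 54.4 in *Ifnar1*-/- libraries, with all WT sums above all *Ifnar1*-/- sums. Of 16 such markers 11 were tested, 11 had a log2 fold change above 0 (median 1.51), and 0 were called, while 9 had an unadjusted p of at most 0.05. Among all tested genes, 48.2% were above 0, and 9.69% had such a p with a positive fold change. No marker of this list was at 0 in every library. In *Ifnar1*-/- library 3 the sum was the lowest of all libraries and *Ccl5* the second highest. The part of T and NK cell RNA in the *Ccl5* values was not tested.

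**Figure D4:**
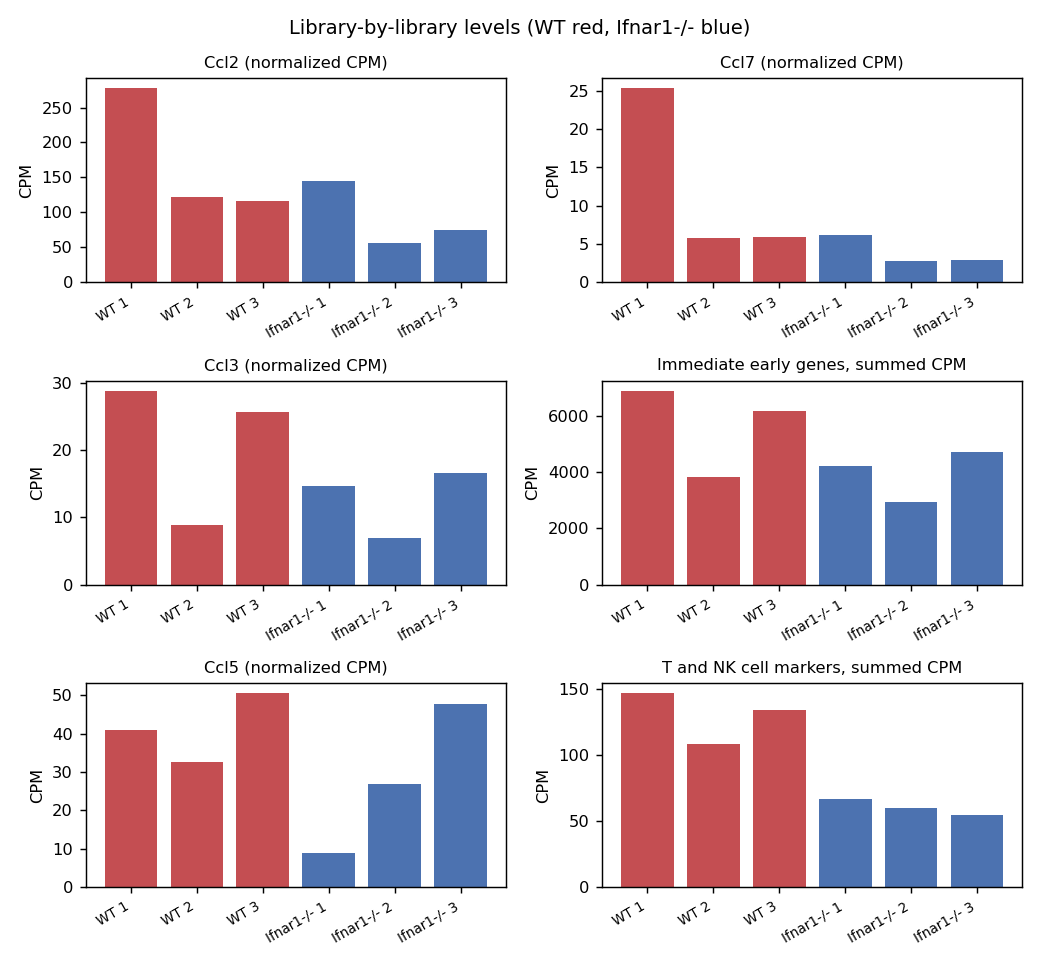
Normalized CPM (y axes, from 0) of *Ccl2*, *Ccl7*, *Ccl3*, and *Ccl5*, and the summed normalized CPM of 17 immediate early genes and 16 T and NK cell markers, in each library (x axes; WT red, *Ifnar1*-/- blue). *Ccl7* is 25.3 in WT library 1 and at most 6.11 elsewhere, *Ccl3* and the immediate early genes are lowest in library 2 of each group, and *Ccl5* is 8.86 in *Ifnar1*-/- library 1 and at least 26.9 elsewhere.

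The abundant CCR1 ligands *Ccl6* and *Ccl9* had the smallest fitted differences of the 9 tested ligands. *Ccl6* had 1243, 811, and 699 normalized CPM in WT and 1325, 874, and 788 in *Ifnar1*-/- libraries, with a log2 fold change of -0.12 (SE 0.26, edgeR adjusted p = 0.855). The 95% interval of its ratio, WT over *Ifnar1*-/-, was 0.620 to 1.37. *Ccl9* had 510, 331, and 328 normalized CPM in WT and 617, 285, and 399 in *Ifnar1*-/- libraries, a log2 fold change of -0.15 (SE 0.28, edgeR adjusted p = 0.816). The interval of its ratio was 0.588 to 1.37. Changes inside these intervals were not detectable with 3 libraries a group, and both genes turned to a log2 fold change above 0 (0.16 and 0.21) without *Ifnar1*-/- library 1. A transcript annotated on the other strand of *Ccl6*, *E230016K23Rik*, had at most 7 counts in a library.

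*Ccl22*, a CCR4 ligand that dendritic cells make, had 9.53, 2.76, and 1.38 normalized CPM in WT and 2.75, 2.20, and 1.10 in *Ifnar1*-/- libraries. WT library 1 was again apart, and the other WT libraries fell within or near the *Ifnar1*-/- range. The log2 fold change of 1.21 (95% interval -0.21 to 2.62, edgeR adjusted p = 0.352) went to 0.02 without WT library 1. Dendritic cell markers summed to 156, 102, and 97.5 normalized CPM in WT and 117, 120, and 74.3 in *Ifnar1*-/- libraries, also highest in WT library 1. Of 10 such markers 5 were tested and 0 were called, and none was at 0 in every library. The part of dendritic cell RNA in the *Ccl22* values was not tested.

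**Figure D5:**
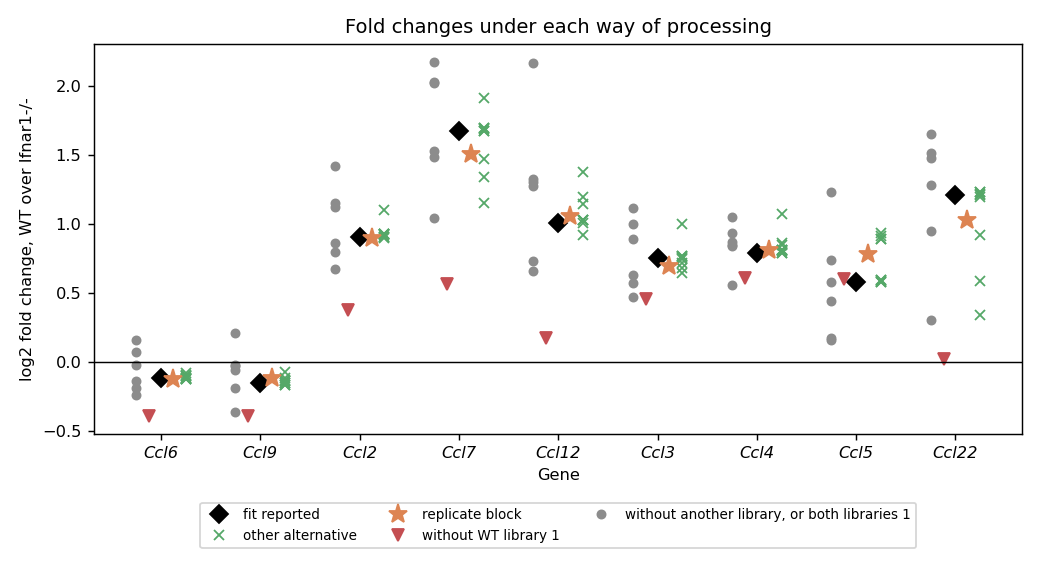
Log2 fold change of WT over *Ifnar1*-/- monocytes (y axis) for the 9 tested CC chemokine ligands under the fit reported (diamonds), the replicate block (stars), without WT library 1 (red triangles), without another library or both libraries 1 (grey), and other alternatives (crosses). Without WT library 1, *Ccl12* falls from 1.01 to 0.17 and *Ccl22* from 1.21 to 0.02, while *Ccl4* keeps 0.61.

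Most other CC ligand genes were not detected. Of the other 14 gene symbols of the family, 9 had 0 counts in every library, among them *Ccl11*, *Ccl19*, and *Ccl20*, and 3 were tested, *Ccl17*, *Ccl24*, and *Ccl25*. None of the 3 was called, and 1, *Ccl24*, had an unadjusted p of at most 0.05. *Ccl24*, a ligand of the eosinophil receptor CCR3, had 25.5, 9.14, and 6.12 normalized CPM in WT and 91.2, 45.6, and 19.9 in *Ifnar1*-/- libraries, a log2 fold change of -1.90 (SE 0.56, edgeR adjusted p = 0.124).

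Transcripts of receptors of the abundant ligands were present in the same libraries. Of 15 CC and atypical receptor genes, 4 were tested and 0 were called. At an unadjusted p of at most 0.05, 1 had a positive and 1 a negative fold change, beside 9.69% and 8.14% of all tested genes. *Ccr2*, the receptor of CCL2, had 648, 694, and 587 normalized CPM in WT and 1269, 794, and 905 in *Ifnar1*-/- libraries. Every WT library lay below every *Ifnar1*-/- library, beside 12.2% of all tested genes, with a log2 fold change of -0.62 (SE 0.20, edgeR adjusted p = 0.143). Counts of *Ccr2* were not whole, since reads were partly divided with similar genes. *Ccr1* had overlapping groups (log2 fold change -0.13, edgeR adjusted p = 0.779). *Ccrl2*, an atypical receptor gene, had 171, 124, and 160 normalized CPM in WT and 106, 81.0, and 116 in *Ifnar1*-/- libraries, a log2 fold change of 0.58 (edgeR adjusted p = 0.135). *Ccr3*, *Ccr4*, and *Ccr8* did not pass the filter, with at most 17, 5, and 2 counts in a library, and the scavenger receptor gene *Ackr2* had 0. Among 10 genes of proteases and heparan sulfate proteoglycans that trim or bind chemokines, 1 was upregulated in WT, *Sdc3*, the gene of syndecan-3. It had 698, 364, and 331 normalized CPM in WT and 64.8, 137, and 90.1 in *Ifnar1*-/- libraries, a log2 fold change of 2.26 (SE 0.33, edgeR adjusted p = 0.00494).

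Promoter windows (RefSeq, GRCm38.p6, 250 bases before to 50 after the start) matched 6 ligands, *Ccl3*, *Ccl6*, *Ccl8*, *Ccl9*, *Ccl12*, and *Ccl22*, and left *Ccl2*, *Ccl4*, *Ccl5*, and *Ccl7* without one. The core of the interferon-stimulated response element, searched on both strands as GAAA, any 2 bases, and GAAA, was in 0 of the 6 windows. It was in 8 of 15 windows of interferon-stimulated genes, such as *Ifit1*, *Isg15*, and *Cxcl10*, and in 3.4% of all 32851 windows. The GAS element, TTCNNNGAA, was in 0 of the 6 and in 8.3% of all windows. The NF-κB consensus, searched like GAS on both strands, was in 1 of the 6 and in 8.5% of all windows. This match, shown in capitals as the only motif found among the ligand windows, began 35 bases before the start of *Ccl9*, within chr11:83578642-83578691, minus strand, GRCm38.p6, and reads as the consensus on the opposite strand.
Ccl9 promoter: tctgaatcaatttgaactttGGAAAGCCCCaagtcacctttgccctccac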

How the data were processed

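RNA-seq of sorted CNS monocytes from IFN-β-treated mixed BM chimera mice was analyzed from gene-level files, 3 WT and 3 *Ifnar1*-/- libraries grouped by the deposited labels. The authors mapped paired-end reads to GRCm38 and used RSEM, which gave the deposited expected counts per gene, estimated and not normalized, and the deposited TPM, scaled for length and library by the authors. The submitters' processing notes name RSEM 1.2.31 and STAR 2.6.0c. The paper and the labels name different library kits, and the strand setting of the counting is not given in the sources used here. The deposited lengths were used for the length offset, and FPKM was not used. The deposited file of each library also carries a number that the labels do not explain, so whether libraries of a group differ in another condition is not given in the sources used here.

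Expected counts were rounded and matched to GENCODE M21 (54165 of 54232 identifiers, versions removed). WT was compared with *Ifnar1*-/- with edgeR 4.0.16 in R 4.3.3 (TMM, filterByExpr with a minimum count of 10, quasi-likelihood test, Benjamini-Hochberg adjustment over 11254 genes). The SE was derived from the F statistic of that test, and intervals are 95%. Exact permutation tests used log2 of normalized CPM plus 0.5. The 10 ligands and the gene lists were chosen with earlier results of these data known. Named genes are the 10 ligands, called genes of the lists on CC ligands, receptors, and ligand processing and of the immediate early, NF-κB, and interferon-stimulated lists, and the receptors of the ligands; others were named after their values were seen, and some genes of these lists are not reported here. Alternatives included DESeq2 1.42.0, which the study used, limma-voom 3.58.1, RLE normalization, other filters, TPM with limma, removal of mitochondrial and ribosomal RNA genes, a length offset, a replicate block, adjusted p alone, and leaving out libraries. Scripts were tested on simulated data. Depth was 4531782 to 7321380 counts a library, so that 3 counts, the detection floor, were 0.410 to 0.662 CPM. Floors cover counting error only.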

Additional observations from a re-analysis of the deposited data

How the results depend on the processing

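The number of CC chemokine ligands called higher in WT was 0, and it moved to 4 without the filter on low counts (*Ccl2*, *Ccl3*, *Ccl4*, and *Ccl7*, adjusted p from 8.6e-07 to 0.0348 from edgeR) and to 2 with the replicate number as a block. Under the block, log2 fold changes were 0.90 for *Ccl2* (edgeR adjusted p = 0.0232) and 1.5 for *Ccl7* (adjusted p = 0.0435), and in all genes it moved the calls from 188 higher and 52 lower to 182 and 38. Across genes, deviations from the group means had correlations between same-numbered libraries of 0.0974, 0.0213, and 0.232, and 5 of 6 libraries correlated best with their own number. Over the 9 ligands these correlations were 0.643, 0.495, and 0.804, against -0.785 to 0.0257 between libraries of different number. Deviations of the 3 libraries of a group sum to 0 for each gene. Positive values for the same number therefore push those for different numbers below 0, and the contrast is partly arithmetic. The fit reported has no block because no source ties a library to a mouse. Whether the numbers pair the libraries is not known, and the count of 0 called ligands depends on this choice. The number was 0 under the other alternatives and in every fit that left out 1 library (lowest 0, highest 0), and no ligand was called lower under any. The cause of these changes was not tested. Of 151 log2 fold changes of the 9 ligands under alternatives, 142 kept their direction and their side of the threshold, 6 passed it, and 3 turned direction. Leaving out 1 library moved *Ccl6* from -0.39 to 0.16, *Ccl9* from -0.39 to 0.21, *Ccl7* from 0.56 to 2.17, *Ccl12* from 0.17 to 2.16, *Ccl22* from 0.02 to 1.65, *Ccl2* from 0.37 to 1.42, *Ccl3* from 0.45 to 1.12, *Ccl4* from 0.56 to 1.05, and *Ccl5* from 0.17 to 1.23. *Ccl12* and *Ccl22* could not be tested with a minimum of 10 counts in every library. Few counts limit *Ccl8*, *Ccl12*, and *Ccl22*. *Ccl7* also had few outside WT library 1, with 178, 27, and 30 counts in WT and 40, 16, and 16 in *Ifnar1*-/- libraries.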
